A study of Mus musculus with 16 samples.

Results

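A set of 40 mouse genes that are known to be imprinted and that lie outside the Dlk1-Meg3 locus was examined in a pancreatic β-cell line. They came from a list of gene symbols, not from measured values, and all 40 were among the 23329 genes of the count table. Of these 40, 20 are expressed from the paternal allele, 19 from the maternal allele, and Gnas from either allele depending on the transcript. A filter on low counts left 27 of them for testing: 16 paternally expressed genes, 10 maternally expressed genes and Gnas.

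The study compared wild-type BetaTC6 cells with a BetaTC6 line that the labels call a knockout of P2ry1, a Gq-coupled receptor for extracellular nucleotides. BetaTC6 is an established insulinoma line on a C57BL/6 background, and as background it carries the SV40 large T antigen driven by an insulin promoter. Each line was given DMSO, the vehicle, or ivermectin, an antiparasitic drug that also acts on several ligand-gated channels. Polyadenylated RNA was sequenced from 4 samples in each of the 4 groups. All 16 samples, vehicle included, were first held without glucose and then given 20 mM glucose for 30 min, and the drug was present only during that last step. The labels do not say whether the line labelled knockout is 1 clone, and they do not say whether the 4 samples of a group came from separate cultures. The p-values therefore measure the spread between these samples, which may be technical.

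An imprinted gene is read mainly from the copy inherited from the mother or mainly from the copy inherited from the father. The choice is kept by DNA methylation laid down in the germ line at imprinting control regions, and neighbouring imprinted genes often share 1 such region and form a cluster. Many of these genes act on growth, nutrient transfer or hormone secretion, and several are active in β cells or have been tied to neonatal diabetes. The counts here sum both alleles, so they give the total level of each gene and say nothing about which copy was read.

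The promoter sequences of 5 members are shown first, chosen for the reasons given with each. RefSeq windows of 300 bases, from 250 before to 50 after a start site in GRCm38.p6 (the build also named mm10), were found for 31 of the 40 genes. The Peg3 window is shown because Peg3 and Usp29 start back to back on opposite strands. Their windows share 263 bases, and the capitals mark the 163 bases between the start sites of these 2 windows. The full gene spans reach into this stretch, Peg3 up to position 6730462 and Usp29 from position 6730559. The Peg3 window is given on the minus strand and covers chr7:6730370-6730669.
Peg3: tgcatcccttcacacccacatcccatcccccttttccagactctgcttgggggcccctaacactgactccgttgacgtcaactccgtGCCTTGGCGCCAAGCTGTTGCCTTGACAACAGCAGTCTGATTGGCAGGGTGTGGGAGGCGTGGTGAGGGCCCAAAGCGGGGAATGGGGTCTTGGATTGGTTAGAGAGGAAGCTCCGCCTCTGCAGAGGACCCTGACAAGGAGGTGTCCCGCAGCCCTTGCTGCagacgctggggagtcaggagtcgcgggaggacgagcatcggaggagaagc
The other 4 windows are shown because they hold the 6 letters TGCCGC, known in methylated form as the binding sequence of ZFP57, a zinc-finger protein that protects methylation imprints. In each of them the capitals mark its reverse complement, GCGGCA. Plagl1 is read on the plus strand from chr10:13090582-13090881, Nnat on the plus strand from chr2:157559828-157560127, Zim1 on the minus strand from chr7:6696383-6696682, and the second of the 4 Igf2 start sites on the minus strand from chr7:142661222-142661521.
Plagl1: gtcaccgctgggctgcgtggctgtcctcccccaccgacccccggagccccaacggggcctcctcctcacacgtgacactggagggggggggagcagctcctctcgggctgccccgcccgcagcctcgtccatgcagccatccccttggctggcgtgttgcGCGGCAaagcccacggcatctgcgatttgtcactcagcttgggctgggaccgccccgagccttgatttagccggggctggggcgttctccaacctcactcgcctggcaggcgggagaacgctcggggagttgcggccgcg
Nnat: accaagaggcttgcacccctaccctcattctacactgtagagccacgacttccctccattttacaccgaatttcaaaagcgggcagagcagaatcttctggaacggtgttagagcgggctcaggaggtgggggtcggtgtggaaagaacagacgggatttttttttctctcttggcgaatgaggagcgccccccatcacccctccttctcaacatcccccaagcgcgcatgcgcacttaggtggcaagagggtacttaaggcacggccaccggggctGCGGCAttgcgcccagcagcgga
Zim1: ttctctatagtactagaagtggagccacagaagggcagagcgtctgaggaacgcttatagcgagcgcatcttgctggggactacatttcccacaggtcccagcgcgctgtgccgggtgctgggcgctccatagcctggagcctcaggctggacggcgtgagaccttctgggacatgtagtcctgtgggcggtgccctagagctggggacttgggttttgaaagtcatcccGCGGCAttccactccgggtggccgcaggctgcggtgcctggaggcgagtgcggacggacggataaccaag
Igf2: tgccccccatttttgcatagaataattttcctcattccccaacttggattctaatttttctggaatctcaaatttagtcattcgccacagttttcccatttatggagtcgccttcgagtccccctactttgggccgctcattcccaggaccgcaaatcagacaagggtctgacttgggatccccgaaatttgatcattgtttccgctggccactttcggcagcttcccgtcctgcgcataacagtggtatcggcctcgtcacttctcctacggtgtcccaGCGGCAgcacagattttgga
Counting both strands, TGCCGC was present in 8 of 24 windows of paternally expressed members (33.3%) and in 3 of 16 windows of maternally expressed members (18.8%), beside 3813 of 32851 windows of all genes (11.6%). Windows of 1 gene can overlap, and these 24 and 16 windows belong to 16 and 14 genes. The median number of CpG dinucleotides per window was 12.5 in the paternally expressed members, 22.5 in the maternally expressed members and 7 in all windows. The Peg3 and Usp29 windows held none of these 6-letter matches. Nor did the windows of Ndn, Cd81, Gnas, Igf2r and Gatm, which also differed between the lines, or the other Igf2 windows. This says only that the letters are not in these windows. A match is a description of the sequence, not evidence of binding. The transcript of Zfp57 itself was at 0 CPM in all libraries but 1, a KO-labelled vehicle library at 0.501 CPM (CPM are counts scaled for library size), which is under the level of 3 counts.

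Total counts per library ranged from 893288 to 2013475, and the 4 wild-type vehicle libraries were the shallowest, at 893288 to 1065003. The level that 3 counts represent, the upper limit that a count of 0 allows, was 1.497 to 3.37 CPM, for counting error only. P2ry1 transcript did not tell the lines apart: its level was 85.4 to 105.6 CPM and 88.0 to 104.1 CPM in wild type with vehicle and ivermectin, and 72.8 to 94.8 CPM and 81.0 to 92.5 CPM in the line labelled knockout (edgeR adjusted p = 0.246 in vehicle and 0.394 in ivermectin). The level of the transcript therefore does not check the labels, and every direction given for the KO-labelled line rests on those labels. All 14 β-cell markers had counts in each group, and Ins2 averaged 20439 CPM in wild-type vehicle and did not pass in either comparison of the lines (adjusted p = 0.768 and 0.794). Of the 14 markers, 5 passed between the lines in vehicle, 2 higher and 3 lower in the KO-labelled line (35.7%, beside 20.7% of all genes), and 7 in ivermectin, 2 higher and 5 lower (50%, beside 27.8%), with log2 differences from -0.81 to 0.48 over both. Alb, a liver transcript, averaged 579 CPM in wild type with vehicle and 101 CPM with the drug, and 38.9 and 68.2 CPM in the KO-labelled line. The 16 hepatocyte markers, which include Ttr, also made by islet cells, summed to 1247 to 2611 CPM in wild type with vehicle and 753 to 911 CPM with the drug, and to 794 to 1058 and 918 to 1160 CPM in the KO-labelled line. Without Ttr, which was left out after its values were seen, the other 15 summed to 689 to 1948 and 135 to 368 CPM in wild type and to 54.2 to 132 and 82.3 to 302 CPM in the KO-labelled line. In vehicle all 16 markers passed between the lines, 15 of them lower in the KO-labelled line (median log2 difference -3.74), and for ivermectin in wild type 14 of 16 were lower. Fibroblast, macrophage and skeletal muscle lists each stayed at or under 31.3 CPM in sum, with the muscle list at 7.12 to 31.3 CPM in wild type and 3.998 to 7.55 CPM in the KO-labelled line. Wild-type ivermectin replicate 4 stood apart from its group: its counts differed from those of the other 3 with a chi-square of 5.05 to 6.81 per degree of freedom, while no other pair of replicates exceeded 2.18. Without that library, 14 members in place of 15 passed in the ivermectin comparison, and the one lost was Ube3a.

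The imprinted genes covered nearly the whole range of expression in these cells. In TPM, a level scaled for library size and transcript length so that genes can be compared, Nnat ranked 6th of all 23329 genes with a mean of 4839 TPM. Nnat encodes neuronatin, a small membrane protein of the endoplasmic reticulum that supports insulin production. Gnas, which encodes the stimulatory G-protein subunit that couples incretin receptors to cAMP, ranked 15th at 3239 TPM. Igf2, the fetal growth factor, ranked 115th at 1155 TPM. Over all 16 libraries the next members in order were Peg3 at 258 TPM, H13 at 111, Igf2r at 84.3 and Cd81 at 64.4 TPM. Igf2r was above Cd81 in the KO-labelled libraries only: in wild-type vehicle Cd81 was at 86.6 to 109.4 TPM and Igf2r at 64.8 to 82.3 TPM. In wild-type vehicle, the Nnat level of 4231 to 4573 TPM did not overlap with the Gnas level of 3633 to 4070 TPM, and Igf2 lay under both at 858 to 1006 TPM. Igf2r and Rasgrf1, the latter at 52.5 to 70.0 TPM, overlapped, so their order is not beyond the spread in that group.

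**Figure D1:**
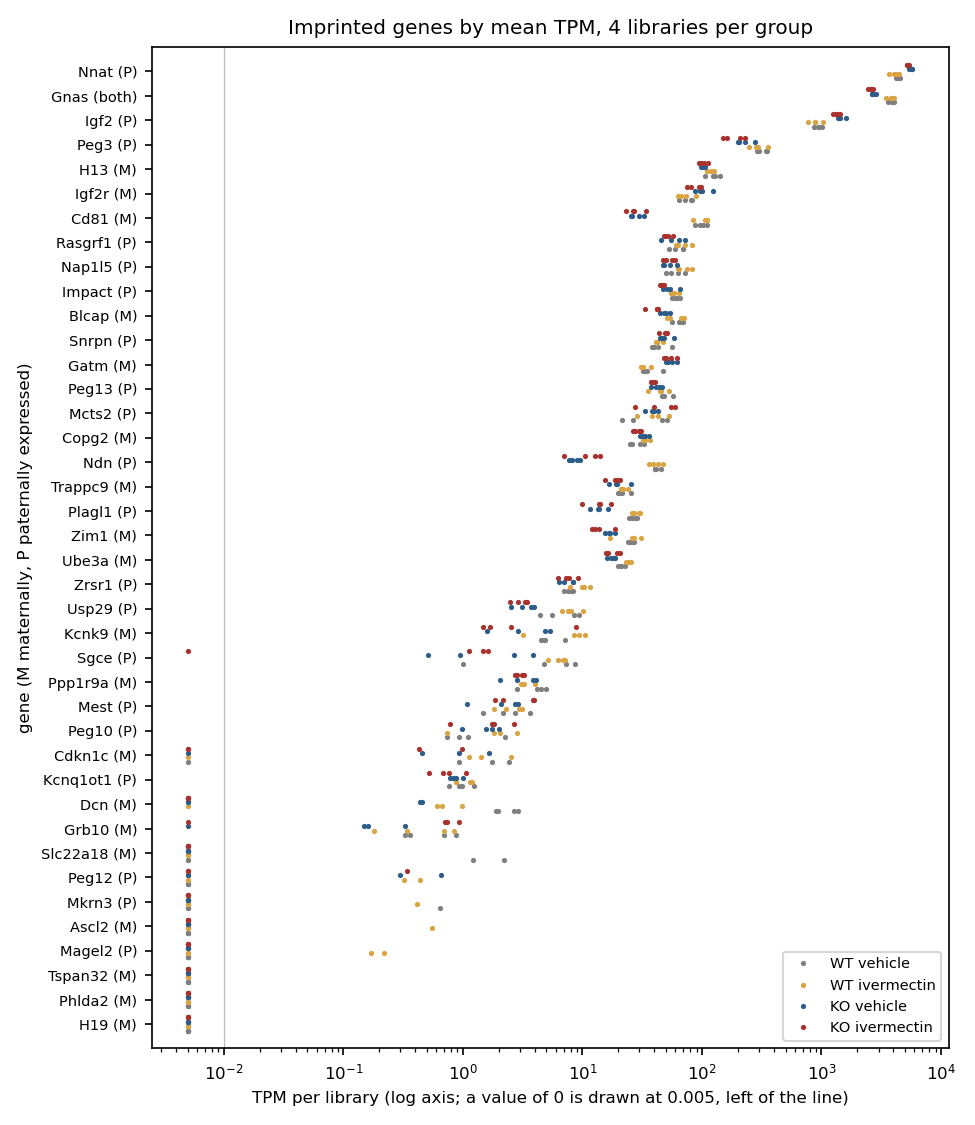
Level of each of the 40 genes in each library, in TPM on a log axis, with genes ordered by their mean over 16 libraries and each group drawn in its own colour (WT wild type, KO the line labelled P2ry1 knockout). Nnat, Gnas and Igf2 stand at the top, and H19, Phlda2 and Tspan32 are at 0 in all 16 libraries, drawn left of the grey line.

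At the other end, 13 members were too low to test. H19, the maternally expressed long non-coding RNA that shares enhancers with Igf2, had no count in any of the 16 libraries, while its neighbour Igf2 had 1910 to 7587 counts per library. Both genes lie on chromosome 7, with H19 at chr7:142575530-142578146 and Igf2 at chr7:142650768-142666816. Phlda2, a placental growth regulator, and Tspan32, a tetraspanin, were also at 0 in all 16. In the Kcnq1ot1 domain, Cdkn1c, a cyclin-dependent kinase inhibitor that restrains β-cell proliferation, had 0 to 4 counts per library, Slc22a18 had 3 counts in all and Ascl2 had 1. Of the maternally expressed members of this domain, Cd81 was thus the one with enough counts to test. Grb10, an adaptor that dampens insulin-receptor signalling, had 0 to 5 counts per library, and Mest, a paternally expressed gene of mesodermal tissues, had 2 to 11. Kcnk9, a potassium channel, had 2 to 12. Of the paternally expressed genes near Snrpn, Magel2 and Mkrn3 had 2 counts each in total and Peg12 had 6. Dcn, which encodes the matrix proteoglycan decorin, had 3, 2, 2 and 3 counts in the wild-type vehicle libraries and 0 to 2 in each of the others. The fibroblast list was also highest in wild-type vehicle, at 7.43 to 8.99 CPM against 2.01 to 6.28 CPM in the other 3 groups, and its part in the Dcn counts was not tested.

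Between the 2 lines, some imprinted genes were higher and others lower, among genes known as paternally and as maternally expressed. In vehicle, 11 of the 27 tested members passed the edgeR quasi-likelihood test at an adjusted p of 0.05 (40.7%), beside 20.7% of all 10822 genes tested. Igf2, Igf2r, Nnat and Gatm were higher in the KO-labelled line, beside 9.9% of all genes higher. Cd81, Ndn, Plagl1, Usp29, Peg3, Zim1 and Gnas were lower, beside 10.8% of all genes lower. In ivermectin, 15 of 27 passed (55.6%, beside 27.8% of all genes), 5 higher (14% of all genes) and 10 lower (13.9% of all genes). The same 11 genes passed in the same direction in both treatments, beside 15.1% of all genes, and Sgce, Blcap and Ube3a (lower) and Snrpn (higher) passed in ivermectin only, although no difference between the treatments was found for any of them (edgeR interaction adjusted p of 0.964 or more for each of the 27 members). The 2 comparisons of lines share no library, but they compare the same 2 lines in 1 fit of all 16 libraries. Passing in both is therefore not an independent replication of a difference between lines. Several members are abundant, and abundant genes pass more often: among genes with a mean of at least 50 counts, 10 of 20 members passed in vehicle beside 26.4% of genes, and 15 of 20 in ivermectin beside 36.2%.

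Paternally and maternally expressed members did not separate by direction. Of the 16 paternally expressed genes tested, 6 passed in vehicle (37.5%, beside 20.7% of all genes), 2 higher and 4 lower. In ivermectin 8 of them passed (50%, beside 27.8% of all genes), 3 higher and 5 lower. Of the 10 maternally expressed genes tested, 4 passed in vehicle (40%, beside 20.7% of all genes), 2 higher and 2 lower. In ivermectin 6 of them passed (60%, beside 27.8% of all genes), 2 higher and 4 lower. By direction, 9.9% of all genes were higher and 10.8% lower in vehicle, and 14% and 13.9% in ivermectin. The median log2 difference (KO-labelled line minus wild type) was -0.10 in vehicle and -0.26 in ivermectin for the paternally expressed genes, and -0.17 and -0.11 for the maternally expressed genes, while over all genes tested it was -0.000647 and -0.000362. The order of the 2 allele classes was thus opposite in the 2 treatments. With no filter on low counts the maternal medians were -0.26 and -0.20. The median size of the difference, without its sign, was 0.30 and 0.31 over all 27 members against 0.20 and 0.22 over all genes. Groups did not overlap for 14 members in vehicle (22.2% of all genes) and 14 in ivermectin (25.3% of all genes), and for 11 members in both with the same direction (12.8% of all genes). Of the maternally expressed genes, 8 are imprinted in many tissues, and 3 of these could be tested (Igf2r, Zim1 and H13). The other 7 tested are known to be imprinted mainly in placenta or brain, and both copies are often read elsewhere.

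**Figure D2:**
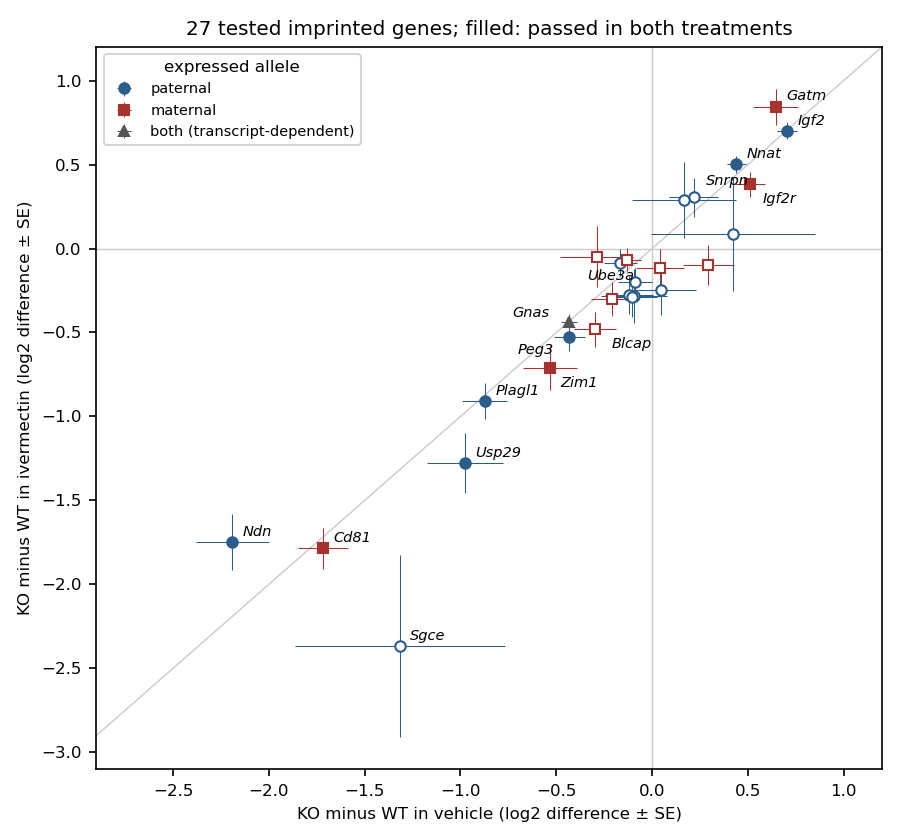
Log2 difference between the KO-labelled line and wild type in vehicle (horizontal) and in ivermectin (vertical) for the 27 tested genes, with SE bars, shape and colour by expressed allele, and filled symbols for genes that passed in both treatments. Gatm, Igf2, Nnat and Igf2r lie at the upper right, Ndn, Cd81, Usp29 and Plagl1 at the lower left, and both allele classes appear on each side.

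The liver transcripts bear on the vehicle comparison, because Alb was higher in every wild-type vehicle library (328 to 923 CPM) than in any KO-labelled vehicle library (17.1 to 52.3 CPM). Within vehicle, the Alb level and the line therefore cannot be told apart. With the log2 level of Alb as a covariate in the fit of all 16 libraries, 6 of the 11 members still passed in vehicle: Igf2, Cd81, Plagl1, Nnat, Gnas and Ndn. That is 22.2% of the 27 tested, beside 3.66% of all genes (396, in place of 2245 without the covariate). Igf2r (adjusted p = 0.139), Peg3 (0.0661), Usp29 (0.34), Zim1 (0.206) and Gatm (0.0525) kept their sign but no longer passed by edgeR. Their log2 differences with and without the covariate were 0.43 and 0.51 for Igf2r, -0.54 and -0.43 for Peg3, -0.78 and -0.98 for Usp29, -0.70 and -0.53 for Zim1, and 0.77 and 0.64 for Gatm. In ivermectin, where Alb did not pass between the lines (log2 difference -0.56 ± 0.36 SE, adjusted p = 0.256), 17 members passed with the covariate (63%, beside 25.9% of all genes). There 2 of the 16 hepatocyte markers passed between the lines, Ttr higher and Tat lower in the KO-labelled line, and 10 of 16 lay under 0 (median log2 difference -0.40). In bulk RNA, fewer cells of a kind and less RNA per cell cannot be told apart.

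Igf2 and Igf2r were higher in the KO-labelled line. Igf2 measured 2147, 2246, 2315 and 2376 CPM in wild-type vehicle and 3592, 3805, 3671 and 3733 CPM in KO-labelled vehicle. Under ivermectin the levels were 2380, 2197, 2186 and 1999 CPM in wild type and 3412, 3620, 3472 and 3746 CPM in the KO-labelled line. Every KO-labelled library was above every wild-type library. The fold was 1.63 in both treatments (log2 difference 0.70 ± 0.05 SE, edgeR adjusted p = 3.02e-13 in vehicle and 1.76e-13 in ivermectin). Igf2r, the receptor that carries IGF2 to lysosomes for breakdown and that is expressed from the opposite allele, moved the same way. It measured 392, 471, 427 and 467 CPM in wild-type vehicle and 560, 713, 595 and 643 CPM in KO-labelled vehicle, a 1.43-fold difference (adjusted p = 4.58e-06). In the ivermectin libraries it stood at 504, 401, 439 and 397 CPM in wild type and 598, 611, 508 and 554 CPM in the KO-labelled line, a log2 difference of 0.38 ± 0.07 (SE, adjusted p = 0.000174). The groups did not overlap in either treatment, but with ivermectin the nearest libraries were at 504 and 508 CPM. With Alb as a covariate, the vehicle difference of Igf2r did not pass (adjusted p = 0.139).

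Other genes of this axis came from a list of 16 that surround IGF and insulin signalling, of which 6 were expressed enough to test. In vehicle 2 of the 6 were lower in the KO-labelled line and none higher, and in ivermectin 3 were lower and none higher, beside 20.7% and 27.8% of all genes passing. The median log2 difference of the 6 was -0.15 in vehicle and -0.35 in ivermectin. Igfbp4, a secreted binding protein that holds IGFs away from their receptor, averaged 46.7 ± 3.14 CPM and 12.9 ± 1.89 CPM in wild-type and KO-labelled vehicle (SD, n = 4), a log2 difference of -1.84 ± 0.17 (SE, edgeR adjusted p = 4e-10), and the ivermectin difference was -1.66. Irs2, the substrate that carries insulin and IGF signals in β cells, had log2 differences of -0.60 in vehicle and -0.95 in ivermectin (adjusted p = 1.67e-05 and 2.25e-10). Insr, the insulin receptor, passed in ivermectin (-0.41, adjusted p = 0.017) and not in vehicle (-0.07, adjusted p = 0.78). Igf1r, the receptor through which IGF2 signals, had log2 differences of 0.09 and 0.03 that did not pass (adjusted p = 0.809 and 0.935).

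**Figure D3:**
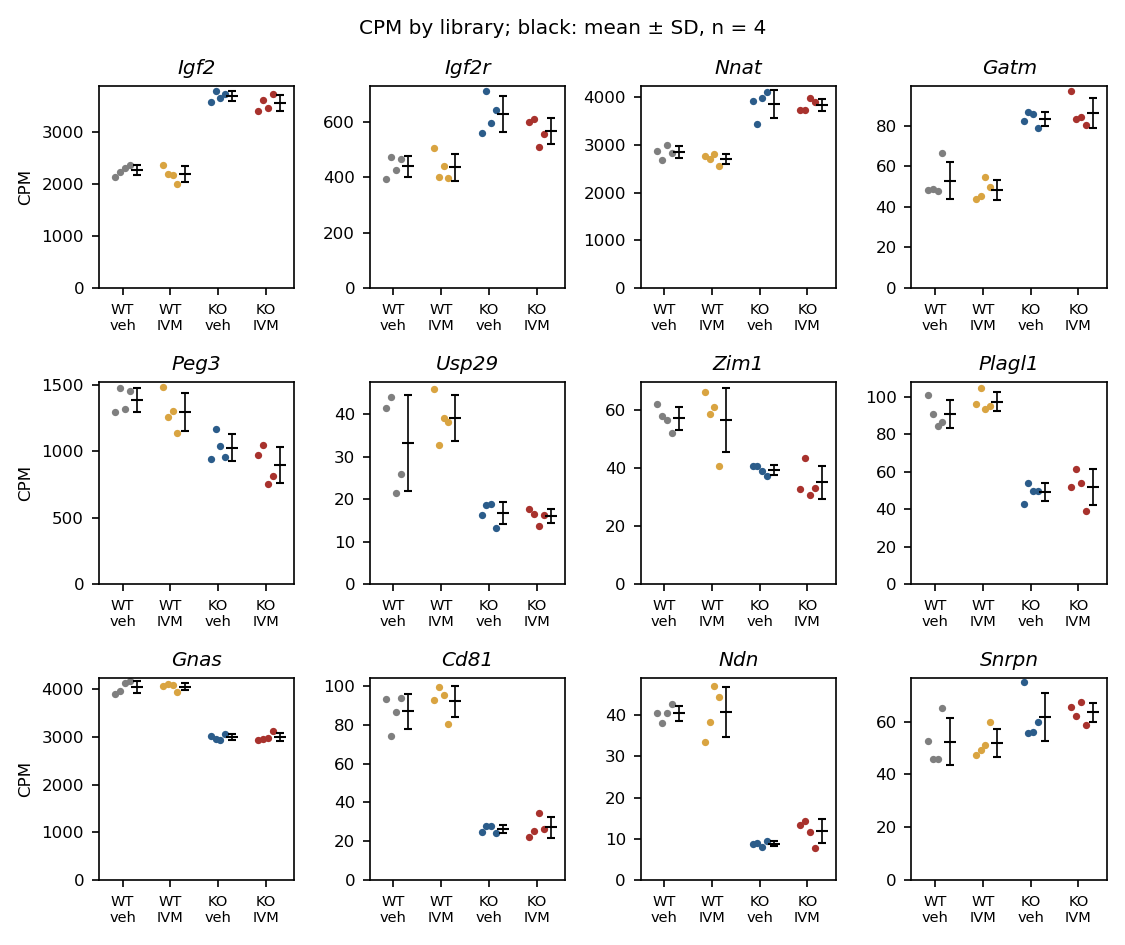
Level of 12 members in each library, in CPM on linear axes that start at 0, with the mean ± SD of each group of 4 in black (WT wild type, KO the line labelled knockout, veh vehicle, IVM ivermectin). Igf2, Igf2r, Nnat and Gatm are higher in the KO-labelled groups, the next 7 panels (Peg3 to Ndn) are lower there, and the Snrpn groups overlap.

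Nnat and Blcap, which share 1 imprinted domain on chromosome 2, differed between the lines in opposite directions, Nnat in both treatments and Blcap past the threshold in ivermectin. Nnat lies inside Blcap on the other strand, their exons do not overlap, and they are expressed from opposite alleles. Nnat measured 2873, 2685, 2994 and 2824 CPM in wild-type vehicle and 3922, 3434, 3973 and 4108 CPM in KO-labelled vehicle. With the drug it was at 2761, 2701, 2798 and 2564 CPM in wild type and 3721, 3734, 3988 and 3894 CPM in the KO-labelled line. The groups did not overlap, with folds of 1.36 and 1.42 (log2 differences 0.44 and 0.50, both ± 0.05 SE, edgeR adjusted p = 2.57e-08 and 1.21e-09). Blcap, a small conserved protein linked to control of cell growth, measured 73.1, 80.2, 82.3 and 84.5 CPM in wild-type vehicle and 66.2, 66.7, 58.9 and 69.4 CPM in KO-labelled vehicle. The ivermectin libraries held 86.0, 86.0, 65.6 and 72.7 CPM in wild type and 57.4, 55.4, 49.0 and 62.8 CPM in the KO-labelled line. It fell by 0.48 on the log2 scale in ivermectin (adjusted p = 0.000664). In vehicle the groups did not overlap either, but the adjusted p of 0.0518 missed the threshold. Blcap passed there with only the 8 vehicle libraries (0.0418), with a mean of at least 50 counts (0.0368) and without wild-type vehicle replicate 1 (0.05). It did not pass with Alb as a covariate (log2 difference -0.27, edgeR adjusted p = 0.616), and over the leave-one-out fits the adjusted p reached 0.146.

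In the Peg3 domain at the start of chromosome 7, all 3 members were lower in the KO-labelled line. Peg3, a paternally expressed zinc-finger protein, measured 1295, 1477, 1316 and 1450 CPM in wild-type vehicle and 940, 1169, 1038 and 959 CPM in KO-labelled vehicle. Under ivermectin the levels were 1484, 1258, 1306 and 1134 CPM in wild type and 975, 1046, 756 and 813 CPM in the KO-labelled line. The groups did not overlap, and the log2 differences were -0.43 ± 0.08 (SE, edgeR adjusted p = 9.96e-05) and -0.53 ± 0.08 (adjusted p = 3.4e-06). Usp29, a ubiquitin-specific protease gene that starts in the other direction from the window shown for Peg3, measured 41.6, 44.0, 21.4 and 26.0 CPM in wild-type vehicle and 16.3, 18.6, 18.96 and 13.2 CPM in KO-labelled vehicle. In the ivermectin libraries it stood at 46.0, 32.9, 39.1 and 38.3 CPM in wild type and 17.7, 16.6, 13.7 and 16.2 CPM in the KO-labelled line. The wild-type vehicle libraries were spread widely but stayed above the KO-labelled ones, and the falls were 1.97-fold (adjusted p = 0.000366) and 2.43-fold (adjusted p = 1.01e-06). Zim1, a maternally expressed zinc-finger gene next to Peg3, measured 61.8, 57.7, 56.6 and 52.0 CPM in wild-type vehicle and 40.7, 40.6, 38.9 and 37.1 CPM in KO-labelled vehicle. With the drug it was at 66.0, 58.6, 61.0 and 40.6 CPM in wild type and 32.7, 43.4, 30.7 and 33.0 CPM in the KO-labelled line. In ivermectin the groups overlapped at wild-type replicate 4, the library that stood apart. The Zim1 log2 differences were -0.53 ± 0.14 (SE, adjusted p = 0.00505) and -0.71 ± 0.13 (adjusted p = 7.63e-05), and -0.82 in ivermectin without that library. With Alb as a covariate, none of these 3 genes passed in vehicle.

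Zim3, a neighbour of the same domain from a second list of imprinted genes, was lower too, by log2 differences of -1.19 and -1.42 (edgeR adjusted p = 0.00466 and 0.000382). Its exons overlap those of Usp29 on the opposite strand, and the sources used here do not state whether counting used the strand, so reads of these 2 genes may not be separate measurements.

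In the Snrpn domain, which is deleted or silenced in Prader-Willi syndrome, the members did not move together. Ndn encodes necdin, a growth-restraining protein of neurons and endocrine cells, and had the largest fall among the 11 members that passed in vehicle. It measured 40.5, 38.1, 40.6 and 42.7 CPM in wild-type vehicle and 8.71, 9.03, 7.98 and 9.54 CPM in KO-labelled vehicle. The ivermectin libraries held 33.5, 38.4, 47.1 and 44.4 CPM in wild type and 13.4, 14.3, 11.8 and 7.76 CPM in the KO-labelled line. Each KO-labelled library was far under each wild-type library, with falls of 4.57-fold (log2 difference -2.19 ± 0.19 SE, edgeR adjusted p = 5.06e-11) and 3.36-fold (-1.75 ± 0.17, adjusted p = 4.69e-10). Snrpn, a paternally expressed gene of the same domain that encodes a splicing protein, measured 52.8, 46.0, 45.9 and 65.0 CPM in wild-type vehicle and 74.9, 55.7, 55.9 and 59.9 CPM in KO-labelled vehicle. Under ivermectin the levels were 47.5, 49.3, 51.0 and 59.7 CPM in wild type and 65.4, 62.3, 67.3 and 58.9 CPM in the KO-labelled line. The groups overlapped in both treatments, and the log2 differences were 0.22 (adjusted p = 0.25) and 0.31 (adjusted p = 0.0476). The ivermectin call did not hold with DESeq2 (0.121) or without any 1 of ivermectin replicates 1 to 3 of either line (adjusted p of 0.057 to 0.14). Snrpn shares exons with Snurf, so its counts depend on how reads were divided between the 2. Ube3a, an E3 ubiquitin ligase that is imprinted in neurons, averaged 67.5 ± 2.03 and 58.5 ± 3.18 CPM (SD, n = 4) in wild-type and KO-labelled vehicle and 78.5 ± 5.06 and 63.8 ± 9.38 CPM in ivermectin. Its log2 differences were -0.21 (edgeR adjusted p = 0.209) and -0.30 (adjusted p = 0.0224). The second did not pass with DESeq2 (0.0725), without wild-type ivermectin replicate 2 (0.0675) or 4 (0.0537), or without KO-labelled ivermectin replicate 1 (0.144) or 3 (0.0544).

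On distal chromosome 7, Cd81 fell while Igf2 rose and Kcnq1ot1 did not pass. Cd81 encodes a tetraspanin of the cell surface that has been used to mark immature β cells. It measured 93.3, 74.3, 86.5 and 93.8 CPM in wild-type vehicle and 25.0, 28.1, 27.9 and 24.4 CPM in KO-labelled vehicle. In the ivermectin libraries it stood at 93.0, 99.2, 95.5 and 80.4 CPM in wild type and 22.0, 25.1, 34.6 and 26.5 CPM in the KO-labelled line. The groups were widely apart in both treatments, with falls of 3.28-fold (log2 difference -1.72 ± 0.13 SE, edgeR adjusted p = 1.42e-12) and 3.45-fold (-1.78 ± 0.12, adjusted p = 6.11e-14). Exons of Cd81 overlap those of a non-coding gene, R74862, on the opposite strand. Kcnq1ot1, the paternally expressed non-coding RNA that silences the maternally expressed genes of this domain in cis, averaged 54.7 ± 10.2 and 51.3 ± 3.30 CPM (SD, n = 4) in wild-type and KO-labelled vehicle, and 58.3 ± 11.5 and 47.6 ± 16.2 CPM in ivermectin. Its log2 differences of -0.09 and -0.28 did not pass (adjusted p = 0.748 and 0.187), and the second passed without KO-labelled ivermectin replicate 4 (-0.51, adjusted p = 0.014). Over the leave-one-out fits the Kcnq1ot1 difference in ivermectin ranged from -0.51 to -0.11, and its edgeR adjusted p reached 0.627. Its span lies inside Kcnq1 on the opposite strand.

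**Figure D4:**
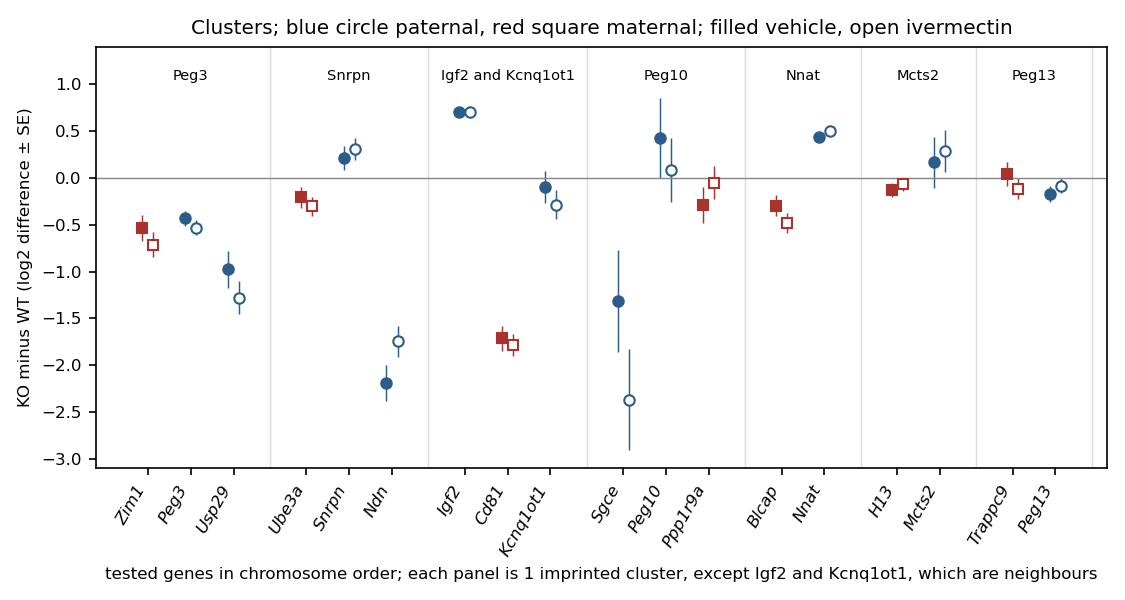
Log2 difference between the KO-labelled line and wild type, with SE bars, for the tested genes of imprinted clusters in chromosome order, with the neighbouring Igf2 and Kcnq1ot1 (Cd81) clusters in 1 panel, with blue circles for paternally and red squares for maternally expressed genes, filled for vehicle and open for ivermectin. The 3 genes of the Peg3 cluster all lie under 0, while Ndn and Snrpn, and Blcap and Nnat, lie on opposite sides of 0 within their clusters. Cd81 and Kcnq1ot1 both lie under 0, and Igf2 of the neighbouring cluster lies above it.

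Plagl1, a paternally expressed zinc-finger regulator whose excess causes transient neonatal diabetes, was lower in the KO-labelled line. It measured 101.2, 90.9, 84.4 and 86.4 CPM in wild-type vehicle and 43.0, 54.2, 49.9 and 49.8 CPM in KO-labelled vehicle. With the drug it was at 96.5, 104.7, 93.5 and 94.9 CPM in wild type and 52.0, 61.7, 54.2 and 38.8 CPM in the KO-labelled line. The groups did not overlap, and the falls were 1.83-fold (edgeR adjusted p = 5.96e-07) and 1.88-fold (adjusted p = 3.19e-08). Gnas was lower by a smaller and very even amount. It measured 3906, 3960, 4124 and 4169 CPM in wild-type vehicle and 3018, 2952, 2928 and 3069 CPM in KO-labelled vehicle. The ivermectin libraries held 4071, 4107, 4075 and 3947 CPM in wild type and 2929, 2963, 2967 and 3126 CPM in the KO-labelled line. The groups did not overlap, and the fall was 1.35-fold in both treatments (log2 differences -0.43 and -0.44, both ± 0.04 SE, adjusted p = 8.53e-10 and 6.32e-10). Counts per gene do not separate the biallelic Gsα transcript from the imprinted transcripts that start upstream of it.

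Gatm, the first enzyme of creatine synthesis, was higher in the KO-labelled line. It measured 48.3, 48.9, 48.1 and 66.9 CPM in wild-type vehicle and 82.5, 86.8, 85.8 and 78.9 CPM in KO-labelled vehicle. Under ivermectin the levels were 44.0, 45.5, 55.0 and 49.8 CPM in wild type and 97.0, 83.4, 84.3 and 80.2 CPM in the KO-labelled line. The groups did not overlap, and the rises were 1.56-fold (edgeR adjusted p = 7.42e-05) and 1.80-fold (adjusted p = 1.41e-07). With Alb as a covariate, the vehicle difference missed the threshold (adjusted p = 0.0525). Gatm is maternally expressed in placenta and whether it is imprinted in these cells was not examined here.

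In the Peg10 cluster on chromosome 6, Sgce passed in 1 treatment on few counts. Sgce encodes a sarcoglycan whose loss on the paternal allele causes myoclonus dystonia. It had 8, 1, 7 and 5 counts in wild-type vehicle and 5, 1, 2 and 8 in KO-labelled vehicle, which overlap. With ivermectin it had 10, 13, 10 and 10 counts in wild type and 3, 3, 2 and 0 in the KO-labelled line, which do not. Its log2 differences were -1.32 ± 0.55 (SE, edgeR adjusted p = 0.0841) and -2.37 ± 0.54 (adjusted p = 0.00111). The vehicle difference passed without wild-type replicate 2 (adjusted p = 0.0267) or KO-labelled replicate 4 (0.0324), and it was 0.0064 with Alb as a covariate (adjusted p = 0.998). Peg10, a retrotransposon-derived gene that starts beside Sgce on the other strand, had 3 to 21 counts per library and log2 differences of 0.42 and 0.09 with SEs of 0.43 and 0.34, which did not pass (adjusted p = 0.528 and 0.88). Ppp1r9a, a maternally expressed gene that encodes the actin-binding protein neurabin, had log2 differences of -0.29 and -0.05 that did not pass (adjusted p = 0.307 and 0.874).

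The remaining 9 tested members did not pass in either comparison of the lines. Among the paternally expressed ones, Impact, a regulator of the amino-acid stress kinase GCN2, averaged 132 ± 8.90 and 124 ± 12.5 CPM in vehicle and 129 ± 10.6 and 112 ± 1.25 CPM in ivermectin (wild type and KO-labelled line, SD, n = 4), and its ivermectin groups did not overlap (edgeR adjusted p = 0.0744). Rasgrf1, a Ras exchange factor found in β cells, averaged 48.0 ± 4.67 and 44.8 ± 7.22 CPM in vehicle and 52.7 ± 2.85 and 43.4 ± 2.63 CPM in ivermectin, where the groups did not overlap either (adjusted p = 0.0639). Nap1l5, of the nucleosome assembly family, had log2 differences of -0.12 and -0.28 (adjusted p = 0.552 and 0.0593). These 3 genes lay near the threshold in ivermectin: each passed with a mean of at least 50 counts (adjusted p of 0.0428, 0.0438 and 0.0423), and Impact (0.0289) and Nap1l5 (0.0263) passed with Alb as a covariate. Without wild-type ivermectin replicate 1, Impact (0.0359) and Nap1l5 (0.0224) passed, and without KO-labelled ivermectin replicate 4 Nap1l5 did (0.0307). None of the 3 passed without wild-type ivermectin replicate 4, the library that stood apart (0.104 for Impact, 0.0747 for Rasgrf1 and 0.227 for Nap1l5). Over the leave-one-out fits the edgeR adjusted p reached 0.256 for Impact, 0.19 for Rasgrf1 and 0.227 for Nap1l5. Peg13, a non-coding RNA inside Trappc9, had log2 differences of -0.17 and -0.08 (adjusted p = 0.173 and 0.477). Zrsr1, a splicing-factor retrogene whose exons overlap Commd1 on the other strand, had 0.04 and -0.24 (0.898 and 0.246). Mcts2, a retrogene inside an intron of H13, had 0.17 and 0.29 (0.716 and 0.359).

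The maternally expressed members among these 9 were H13, Copg2 and Trappc9. H13, the signal peptide peptidase of the endoplasmic reticulum, measured 296 ± 23.7 and 270 ± 8.84 CPM in vehicle and 299 ± 15.4 and 286 ± 28.2 CPM in ivermectin (wild type and KO-labelled line, SD, n = 4; log2 differences -0.13 and -0.07, edgeR adjusted p = 0.219 and 0.502). Copg2, a coat protein of Golgi vesicles whose exons overlap those of Mest, had log2 differences of 0.29 and -0.10 (adjusted p = 0.116 and 0.588). Trappc9, a subunit of a vesicle tethering complex, had 0.04 and -0.11 (0.863 and 0.481). Copg2, Trappc9 and Zrsr1 were the members with opposite signs in the 2 treatments, and the other 24 of 27 had the same sign.

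No imprinted gene passed the test of ivermectin against vehicle in either line. In wild type, 0 of 27 members passed by edgeR or by DESeq2, 2 had an unadjusted p under 0.05 (Zrsr1 at 0.0411 and Nap1l5 at 0.0466), and 0.61% of all genes passed. In the KO-labelled line, 0 of 27 passed by edgeR or DESeq2, 2 had an unadjusted p under 0.05 (Peg3 at 0.0201 and Blcap at 0.0497), and 0% of all genes passed. The median log2 difference of the members was 0.02 in wild type and -0.03 in the KO-labelled line. Igf2 differed by -0.05 ± 0.05 (SE) in both lines, Gnas by 0.0037 and 0.0019, both ± 0.04, and Nnat by -0.07 ± 0.05 and -0.01 ± 0.05. Of the 27 members, 0 passed the test of whether the ivermectin difference depends on the line by edgeR or DESeq2, and 1, Copg2, had an unadjusted p under 0.05 (0.035), beside 0.222% of all genes passing.

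Among genes that set or keep imprints, the share that passed between the lines was no larger than among all genes. From a list of 26 such genes, 22 could be tested. In vehicle 0 were higher and 2 lower (9.09%, beside 20.7% of all genes), and in ivermectin 3 were higher and 3 lower (27.3%, beside 27.8%). Their median log2 difference was -0.02 in vehicle and -0.15 in ivermectin. Atrx, a chromatin remodeller at imprinted and repeat DNA, was lower in both treatments (-0.29 and -0.23, edgeR adjusted p = 0.0137 and 0.0327). Ctcf, the insulator protein of the Igf2 and H19 control region, was lower in vehicle (-0.23, adjusted p = 0.0416) and missed the threshold in ivermectin (-0.20, adjusted p = 0.0518). Zfp445, a zinc-finger protein that protects imprints together with ZFP57, had -0.21 (adjusted p = 0.203) and -0.39 (0.00607). Arid4b, which helps to set methylation in the Snrpn domain, had -0.28 (0.164) and -0.37 (0.0319). Tet2, a methylcytosine dioxygenase, had 0.38 (0.07) and 0.37 (0.0408), and Setdb1, a histone methyltransferase recruited to imprints, had 0.14 (0.539) and 0.34 (0.0419).

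A second list held 29 further imprinted genes, of which 28 were in the table and 16 could be tested. In vehicle 5 were higher and 4 lower, and in ivermectin 4 were higher and 5 lower, which is 56.2% in each, beside 20.7% and 27.8% of all genes. Their median log2 differences were -0.02 and 0.07. Sfmbt2, a paternally expressed Polycomb-related gene, averaged 7.70 ± 3.23 and 18.6 ± 2.09 CPM in wild-type and KO-labelled vehicle (SD, n = 4), with log2 differences of 1.28 and 1.24 (edgeR adjusted p = 0.000714 and 0.000204). Ddc, which makes dopamine and serotonin from their precursors, had 0.58 in both treatments (2.34e-06 and 4.04e-07). Osbpl5, a lipid-transfer protein gene at the edge of the Kcnq1ot1 domain, had 0.96 in vehicle (0.00536) and 0.27 in ivermectin (0.421). Asb4, near Peg10, had -0.26 in vehicle (0.518) and -0.81 in ivermectin (0.00748). Airn, the paternal non-coding RNA that silences Igf2r, had -0.94 in vehicle (0.0526) and 0.32 in ivermectin (0.493).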

How the data were processed

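RNA from 16 BetaTC6 samples in 4 groups of 4 was sequenced as directional poly(A) libraries, paired-end, per the labels' protocols. The submitters' processing notes name STAR 2.7.2b, RSEM 1.3.3, DESeq2 1.32.0, bcl2fastq and mm10, without order or role, and whether counting used the strand is not given in the sources used here. The authors deposited expected counts and TPM per gene and sample, and a table of whole-number counts, which equals the expected counts rounded down in every value. Here the expected counts were rounded to whole numbers. Samples were grouped by the labels.

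Genes passing filterByExpr (minimum count 10, minimum total 15), 10822 of 23329, were fitted by the quasi-likelihood method of edgeR 4.0.16 (R 4.3.3), with library sizes scaled by TMM, all 16 libraries in 1 fit with a mean for each group, and p-values adjusted by Benjamini-Hochberg across the tested genes (threshold 0.05). Log2 differences and SEs are from that fit, and CPM uses TMM-scaled library sizes. The fit was tested on simulated data. The alternatives were DESeq2 1.42.0, other factors, filters, samples, the deposited counts, Alb as a covariate, a replicate block and leaving out each library. Replicate numbers did not pair the samples: deviations of same-numbered samples correlated at -0.06 to 0.15, over 0.1 in 2 of 24 pairs.

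The members, their allele classes (from general knowledge) and the other gene lists were chosen with earlier results of these data known. All members are named. From each other list at most 5 genes are named, those that passed in a comparison of the lines with the same sign in both treatments and had the largest mean difference, plus P2ry1, Ins2 and Alb as checks. Ctcf, Igf1r, Airn, Zfp57, Ttr and Tat were named after their values were seen. The authors' normalized table and the files on human islet cells were not used. Precision is limited by depth, from 893288 counts in the shallowest library to 2013475 in the deepest.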

Additional observations from a re-analysis of the deposited data

Results flagged for a closer look

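A library stood apart from the other 3 of its group, by the ratio of its gap to the nearest value over the whole range, in 4 of the 108 groups of 4 examined (27 members in 4 groups), where chance gives about 5.4. Gatm was at 66.87 CPM in wild-type vehicle replicate 4 and at 48.08 to 48.89 CPM in the other 3 libraries, and that library is still under every KO-labelled one. Peg13 was at 123.7 CPM in KO-labelled vehicle replicate 1 and at 137.2 to 139.7 CPM in the others. Trappc9 was at 64.3 CPM in wild-type ivermectin replicate 4, the library that differed most from its group across all genes, and at 54.48 to 55.9 CPM in the others. Rasgrf1 was at 56.97 CPM in wild-type ivermectin replicate 1 and at 51.04 to 51.52 CPM in the others.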

How the results depend on the processing

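The alternatives kept the members' counts within 1.5 times, except that 6 in place of 11 members passed in vehicle with Alb as a covariate. The vehicle median of the maternally expressed members was -0.26 with no filter and -0.31 with Alb as a covariate, and their ivermectin median was -0.20 with no filter. For the paternally expressed members the vehicle median was -0.18 with Alb as a covariate, beside -0.10 without it. Leaving out 1 library gave 11 to 12 members in vehicle, 13 to 17 in ivermectin, and 0 in the ivermectin and interaction tests. Over all genes it gave 1846 to 2335 between the lines in vehicle and 2430 to 2928 in ivermectin. For ivermectin against vehicle it gave 56 to 100 genes in wild type and 0 in the KO-labelled line, and for the interaction 8 to 48. It gave paternal medians of -0.16 to -0.07 and -0.27 to -0.19, and maternal medians of -0.22 to -0.15 and -0.16 to -0.07, in vehicle and ivermectin.

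Signs turned only for genes that had not passed. In vehicle, with Alb as a covariate, Sgce was at 0.0064 and Trappc9 at -0.017. Leaving out 1 library moved Kcnq1ot1 between -0.18 and 0.030, Zrsr1 between -0.031 and 0.12 and Trappc9 between -0.041 and 0.12 in vehicle. In ivermectin it moved Peg10 between -0.20 and 0.36, Ppp1r9a between -0.10 and 0.025 and H13 between -0.11 and 0.0075. The cause was not tested.

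With the replicate number as a block, 12 members passed in vehicle and 16 in ivermectin, adding Blcap (adjusted p = 0.048) and Nap1l5 (0.0355), and the block changed no other call of a member. Since the numbers do not pair the samples, this is not a paired analysis.

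Over all genes, the count in vehicle was 396 with Alb as a covariate in place of 2245. For ivermectin in wild type (66) it was 140 with no filter, 7 with a mean of at least 50 counts, 1 with Alb and 100 without wild-type ivermectin replicate 1. For ivermectin in the KO-labelled line (0) it was 23 with no filter. For the interaction (24) it was 15 by DESeq2, 82 with no filter, 4 with a mean of at least 50 counts, 47 with the block, 0 with Alb, and 48, 14 and 8 without wild-type ivermectin replicates 1 and 3 and KO-labelled ivermectin replicate 1. Depth limits the 13 untested members: a count of 0 allows up to 3.37 CPM in the shallowest library.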
